A study of Mus musculus with 18 samples.

Results

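The 40 complement and coagulation factors described here were taken by gene symbol from a liver expression table of 19057 gene lines, and all 40 were found. They were kept as 21 complement factors and 19 coagulation factors. They were chosen by name and not by a threshold on a measured value, with earlier results of these data known. All 40 had an RPKM (reads mapped to a gene, scaled for gene length and library size) of at least 1 in all 18 livers, so none was lost to the filter on low values.

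Complement and coagulation are cascades of plasma proteins, most of them secreted by hepatocytes as inactive precursors that cleave one another in turn. Complement is started by the classical route (C1q with the proteases C1r and C1s), by the lectin route (mannose-binding lectins with the MASP proteases) or by the alternative route (factor B and properdin), which meet at C3 and end in the pore-forming terminal factors. Coagulation ends in thrombin, which turns fibrinogen into fibrin, factor XIII cross-links that fibrin, and plasmin dissolves it. Fibrinogen and several complement factors are also acute phase proteins, made in larger amounts by the liver during inflammation.

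The livers came from male ICR mice, all labelled 10 weeks old, and ICR is an outbred stock. Con mice received a regular diet with saline, and HFD mice a high-fat diet with saline. Con-FMT and A10-FMT mice received the high-fat diet and, by mouth, intestinal content of control mice (Con-FMT) or of mice given alginate oligosaccharide at 10 mg/kg (A10-FMT), with the content of donor mice pooled. Another pair of groups was labelled with alginate oligosaccharide (AOS) at 10 mg/kg and without mention of a transfer. The label of the AOS group does not mention a high-fat diet, and that of the HFD+AOS group does. How and when these mice were dosed is not given in the sources used here. Each group held 3 livers. Nothing in the labels says more about the replicates, so the p-values measure the spread between these livers.

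The summed RPKM of a liver lay between 692303 and 806937, and between 14512 and 14982 genes were above 0. Read numbers were not used here, so the depth is unknown. The smallest steps between the values of 166 sparsely read genes had median ratios from 0.948 to 1.05 between livers. These genes were kept only where all livers nearly shared 1 step, so these ratios cannot show whether depth was similar. Hepatocyte markers summed to between 57699 and 94439 RPKM, and markers of neutrophils and of platelets to no more than 10.1 and 4.20 RPKM. In a bulk liver, fewer cells of a type and less RNA per cell cannot be told apart. The Con livers stood apart from one another: 17 hepatic acute phase genes summed to 35255, 11703 and 24746 RPKM in Con replicates 1, 2 and 3, against 7619 to 15192 RPKM in the other 15 livers. Con replicate 3 lay between the other two Con livers for 30 of the 40 factors (75.0%) and for 57.3% of all genes tested, and AOS replicate 3 did so in its own group for 24 of 40 (60%) and for 48.0%. For the other livers the share of the factors was between 10% and 50%. A mixture of the other two libraries of a group would also lie between them, so Con and AOS may hold fewer than 3 independent livers; whether they do was not tested, and n = 3 is given as labelled. Without both of these livers, 0 of the 40 factors and 0 of all genes passed in HFD against Con or in AOS against Con by limma (adjusted p). At an unadjusted p under 0.05 there were then 1 complement and 6 coagulation factors in HFD against Con (10.2% of all genes), and 1 and 2 in AOS against Con (8.76%).

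Promoter windows are shown for the 3 fibrinogen chain genes, of which Fga and Fgg were lower in A10-FMT and HFD+AOS than in HFD (below), and for F11, which was higher. The sequences are from RefSeq (GRCm38.p6), 250 bases before to 50 bases after the annotated start, written 5′ to 3′ on the strand of the gene. A window was found for 31 of the 40 factors. Capitals mark 3 motifs on either strand: CTGGGA, the core of the interleukin-6 response element known from fibrinogen genes, TTGCNNAA, a C/EBP-type motif, and GTTAAT, part of an HNF1-type site.
Fga (chr3:83025903-83026202, plus strand): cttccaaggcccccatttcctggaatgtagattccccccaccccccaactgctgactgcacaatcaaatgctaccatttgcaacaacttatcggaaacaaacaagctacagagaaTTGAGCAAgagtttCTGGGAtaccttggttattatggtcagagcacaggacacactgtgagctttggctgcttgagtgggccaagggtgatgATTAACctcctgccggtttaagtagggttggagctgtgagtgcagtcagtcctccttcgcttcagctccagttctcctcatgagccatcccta
Fgb (chr3:83049814-83050113, minus strand): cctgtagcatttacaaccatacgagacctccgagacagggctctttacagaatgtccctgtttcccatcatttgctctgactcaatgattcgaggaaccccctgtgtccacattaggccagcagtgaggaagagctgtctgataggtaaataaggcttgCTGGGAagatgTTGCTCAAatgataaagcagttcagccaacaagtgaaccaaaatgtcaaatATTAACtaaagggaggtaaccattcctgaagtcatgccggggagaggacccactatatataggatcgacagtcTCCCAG
Fgg (chr3:83007474-83007773, plus strand): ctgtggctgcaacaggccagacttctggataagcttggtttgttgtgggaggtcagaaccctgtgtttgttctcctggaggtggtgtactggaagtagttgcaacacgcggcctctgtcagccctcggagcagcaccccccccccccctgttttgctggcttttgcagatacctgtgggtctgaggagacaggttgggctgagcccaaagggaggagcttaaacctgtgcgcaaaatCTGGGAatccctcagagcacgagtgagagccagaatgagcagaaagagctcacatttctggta
F11 (chr8:45261982-45262281, minus strand): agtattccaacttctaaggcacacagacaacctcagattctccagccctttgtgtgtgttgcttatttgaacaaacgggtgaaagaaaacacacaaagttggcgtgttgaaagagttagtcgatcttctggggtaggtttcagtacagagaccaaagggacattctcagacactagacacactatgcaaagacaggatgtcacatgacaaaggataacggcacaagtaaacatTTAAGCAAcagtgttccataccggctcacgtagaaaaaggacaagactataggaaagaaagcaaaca
CTGGGA was found in all 3 fibrinogen windows, at -121 to -116 from the start in Fga, at -91 to -86 in Fgb and at -13 to -8 in Fgg, with a further copy on the opposite strand of Fgb at 45 to 50. It was not found in the F11 window. Among 27025 genes with a window, 34.8% held it in at least 1 window. It was held by 9 of 15 complement factors and 9 of 16 coagulation factors with a window. TTGCNNAA was held by Fga, Fgb and F11, and by 12.2% of all genes, and GTTAAT by Fga and Fgb, and by 8.24% of all genes. The marked matches do not overlap. A match is a description of letters, not of a factor bound there.

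The fibrinogen genes are neighbours. In GRCm38, Fgg, Fga and Fgb lie on chromosome 3 within bases 83007724 to 83049863. F11 and Klkb1, which encode factor XI and plasma prekallikrein, are neighbours on chromosome 8 with 4657 bases between them.

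The 40 factors spanned a wide range of levels. The highest mean levels over 18 livers were those of Fgb (3056 RPKM), Fgg (2564 RPKM) and Fga (1973 RPKM), and C3, the protein on which the complement routes meet, was the highest complement factor (1833 RPKM). Cfp, which encodes properdin, was the lowest (8.30 RPKM), followed by Pros1, which encodes protein S (13.2 RPKM). The C1q genes (means from 23.6 to 25.8 RPKM) were low beside factors such as Serpinc1 (antithrombin, 1319 RPKM) or Plg (plasminogen, 1010 RPKM). The complement factors held between 0.725% and 0.997% of the summed RPKM of a liver, and the coagulation factors between 1.37% and 2.29%. The steadiest factor was F9, whose highest liver was 1.21 times its lowest, and the least steady was C6, with 3.28 times. Con replicate 1 was the lowest of the 18 livers for F13b, F5, F11, Klkb1, F2, F12, Proc, Serpinc1, Serpind1, Plg, C1ra, C1s1, Masp1 and Masp2, and the highest for Fga, Fgb, Fgg, C9, C4bp and Cfb.

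**Figure D1:**
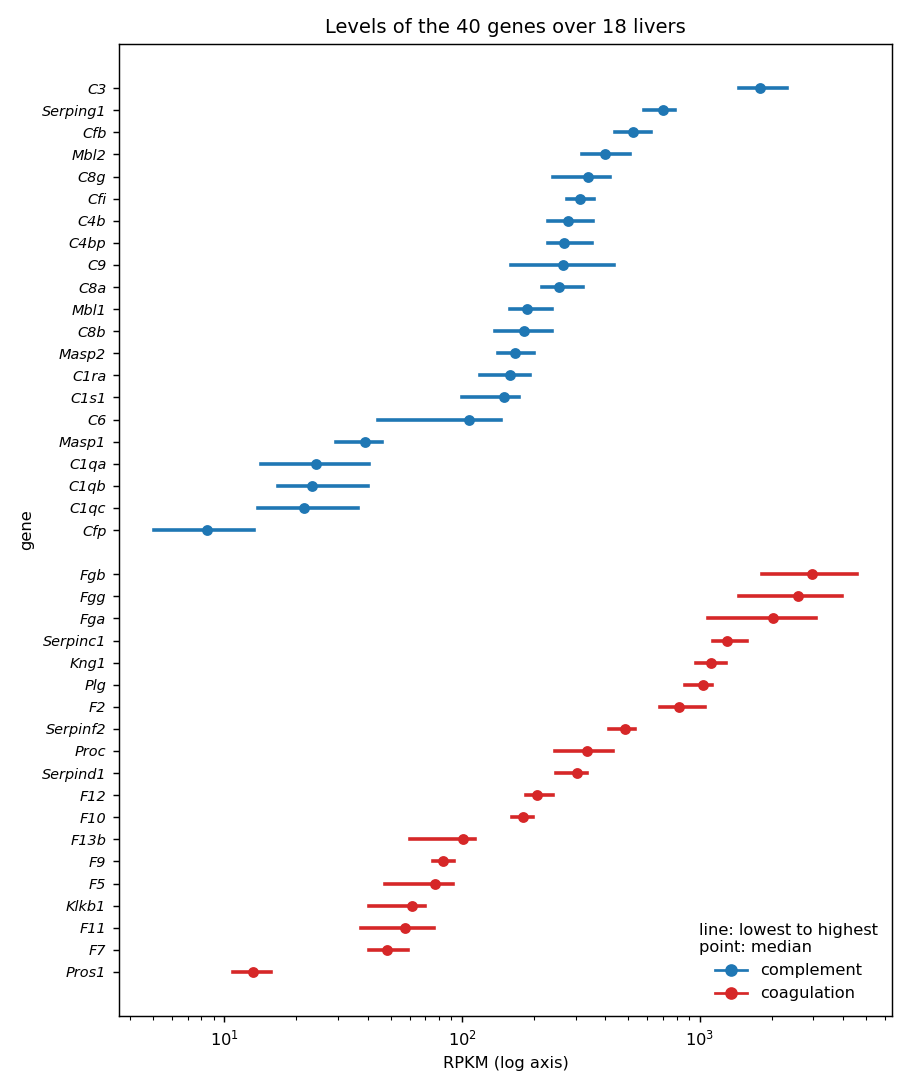
Level of each of the 40 genes over 18 livers. The horizontal axis is RPKM on a log axis, lines run from the lowest to the highest liver and points are medians, with complement factors in blue and coagulation factors in red. The 3 fibrinogen chain genes and C3 sit at the top of their lists, and Cfp and Pros1 at the bottom.

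Changes were tested by limma on log2(RPKM + 1), with 1 mean per group over all 18 livers and adjustment after Benjamini and Hochberg over 10507 genes. The threshold for a change was an adjusted p of 0.05. None of the 21 complement factors changed in any of 6 comparisons, while 3, 5, 0, 1, 5 and 5 of them had an unadjusted p under 0.05 in HFD against Con, A10-FMT against HFD, Con-FMT against HFD, A10-FMT against Con-FMT, AOS against Con and HFD+AOS against HFD, in that order. Of all genes, 15.4%, 24.5%, 6.63%, 16.4%, 15.5% and 26.2% did. Of the 19 coagulation factors, 2 changed in HFD against Con (F13b and F5, both higher in HFD), where 0.381% of all genes changed and 0.295% were higher. In A10-FMT against HFD 3 changed (Fga and Fgg lower, F11 higher), against 6.6% of all genes (3.98% lower and 2.62% higher), and in HFD+AOS against HFD the same 3 genes changed in the same directions, against 8.75% of all genes (4.58% lower and 4.17% higher). These last comparisons share the HFD livers. No coagulation factor changed in Con-FMT against HFD, A10-FMT against Con-FMT or AOS against Con, where 0.00952%, 1.68% and 0.133% of all genes changed, and 0, 3 and 5 coagulation factors had an unadjusted p under 0.05.

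Counting factors whose groups did not overlap at all, there were 2 complement and 7 coagulation factors in HFD against Con, beside 18.5% of all genes, 2 and 5 in A10-FMT against HFD, beside 23.4%, 4 and 9 in HFD+AOS against HFD, beside 27.2%, and 4 and 8 in AOS against Con, beside 24.7%. In Con-FMT against HFD and A10-FMT against Con-FMT there were 0 and 3, beside 10.1%, and 2 and 4, beside 18.3%.

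For A10-FMT against HFD the median log2 fold change was -0.04 for complement, 0.02 for coagulation and -0.03 for all genes tested. In HFD against Con it was -0.02, 0.08 and 0.05, and in HFD+AOS against HFD it was -0.04, 0.05 and -0.01, in the same order. In AOS against Con the coagulation factors had a median of 0.15, with 16 of 19 higher, beside 0.07 for all genes, of which 7122 of 10507 were higher. With the medians of the livers made equal these medians were 0.083 and -0.0013.

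**Figure D2:**
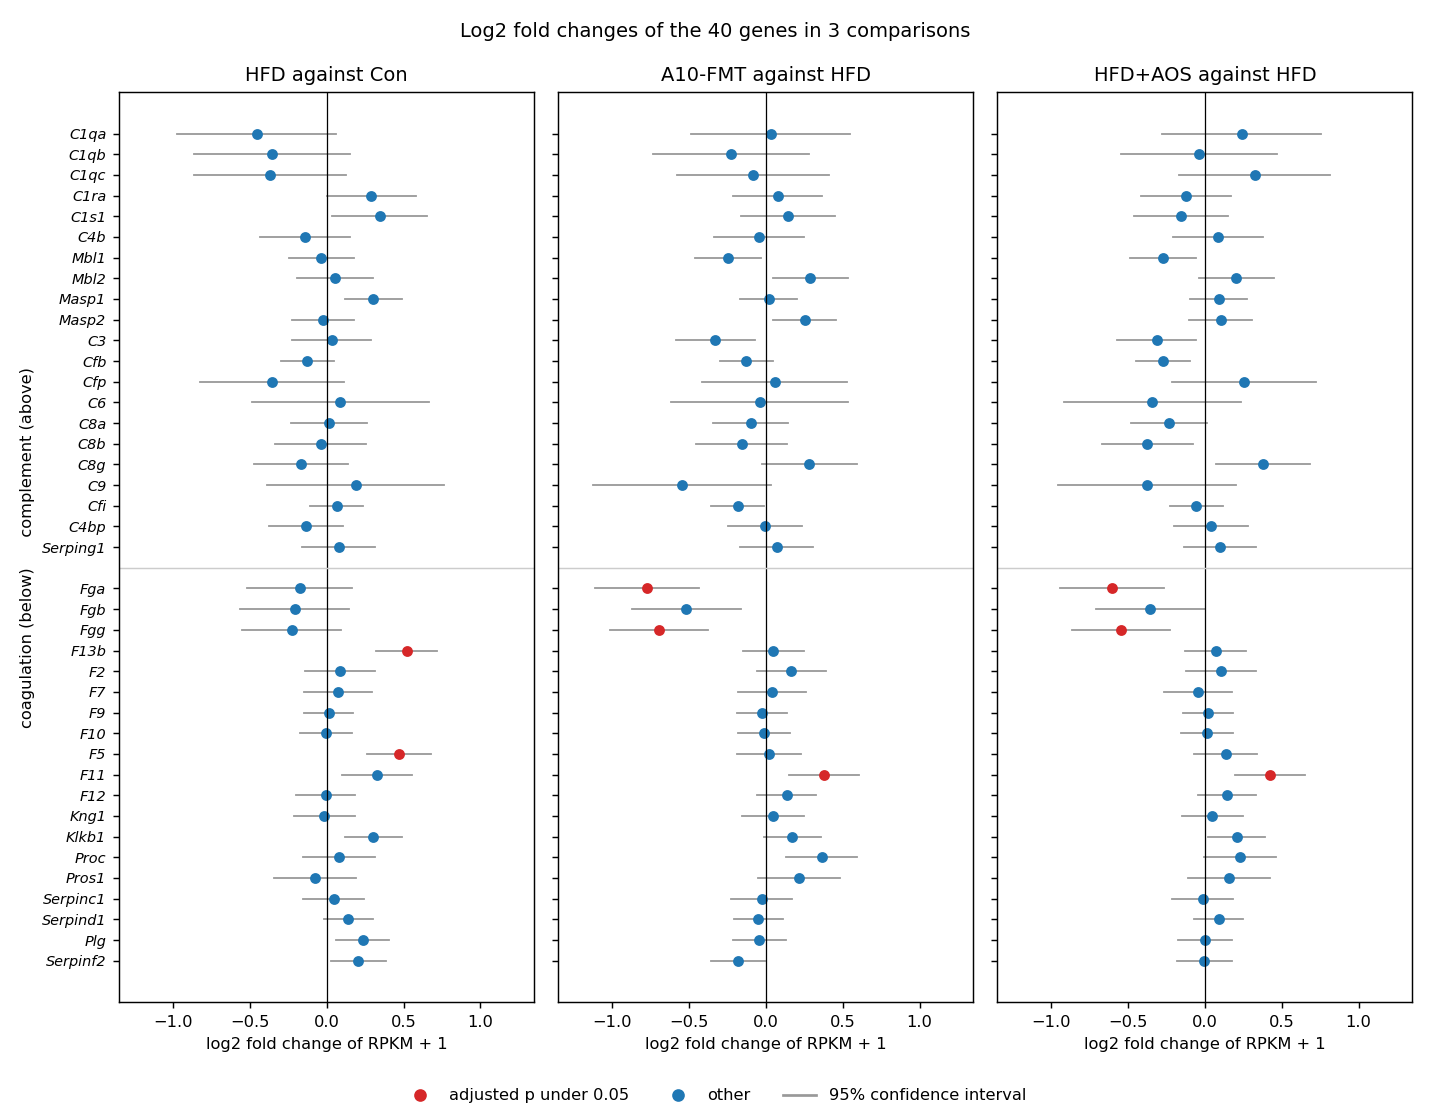
Log2 fold changes of RPKM + 1 (horizontal axis) for the 40 genes in 3 comparisons, with complement factors above and coagulation factors below the line. Points are fitted values over 3 livers a group, lines are 95% confidence intervals, and red points have an adjusted p under 0.05 (F13b and F5 in HFD against Con; Fga, Fgg and F11 in the others).

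Fibrinogen is built of the chains encoded by Fga, Fgb and Fgg. Fga stood at 2078, 2692 and 2048 RPKM in the HFD livers and at 1348, 1081 and 1582 RPKM in the A10-FMT livers. The groups did not overlap, and every A10-FMT liver was also below every Con, AOS and Con-FMT liver. A10-FMT decreased Fga by 0.77 on the log2 scale (SE 0.16; 1.71-fold lower on the RPKM + 1 scale; adjusted p = 0.00991). Fgg stood at 2641, 3438 and 2551 RPKM in HFD and at 1882, 1461 and 1994 RPKM in A10-FMT, again without overlap, and was decreased by 0.69 (SE 0.151; 1.62-fold lower; adjusted p = 0.0131). Fgb stood at 3109, 3875 and 2832 RPKM in HFD and at 2521, 1819 and 2548 RPKM in A10-FMT. Its groups did not overlap either, but its log2 fold change of -0.52 (SE 0.166) did not pass (adjusted p = 0.0707). Together the chains held 1.16% ± 0.206 of the summed RPKM in HFD livers and 0.706% ± 0.13 in A10-FMT livers (SD, n = 3 each).

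The livers labelled with a high-fat diet and AOS had the same pattern. In HFD+AOS livers Fga stood at 1387, 1480 and 1591 RPKM, below each HFD liver, and was lower by 1.52-fold (log2 fold change -0.60, SE 0.16, adjusted p = 0.0302). Fgg stood at 1872, 1893 and 2102 RPKM and was 1.46-fold lower (log2 fold change -0.55, SE 0.151, adjusted p = 0.0364). Fgb, at 2336, 2560 and 2728 RPKM, lay below all HFD livers and had a log2 fold change of -0.35 (adjusted p = 0.189). The 3 HFD+AOS livers lay close together for each chain, whereas HFD replicate 2 was well above the other two HFD livers.

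Both results depended on single livers, as the fits without each liver in turn show. Without HFD replicate 2 the log2 fold change of Fga was -0.64 (adjusted p = 0.0535) for A10-FMT against HFD and -0.48 (adjusted p = 0.122) for HFD+AOS against HFD, and that of Fgg was -0.56 (adjusted p = 0.0663) and -0.41 (adjusted p = 0.142). Without A10-FMT replicate 2, Fga (-0.63, adjusted p = 0.0611) and Fgg (-0.56, adjusted p = 0.0764) no longer passed. In HFD+AOS against HFD both were also lost without HFD replicate 3 (0.0586 and 0.0587 in the adjusted p), without HFD+AOS replicate 1 (0.114 and 0.122) or 2 (0.0707 and 0.0898), and without the third Con and AOS livers, which enter only the estimate of the spread (0.0617 and 0.0714). Fgg alone was lost without HFD+AOS replicate 3 (adjusted p = 0.0538). HFD replicate 2 also had the highest acute phase sum of the HFD livers, at 15192 RPKM against 7619 and 9269 RPKM. Hamp alone stood at 7264 RPKM in this liver, against 1528 and 3156 RPKM in the other HFD livers. A10-FMT replicate 2 had the highest acute phase sum of its group (12995 RPKM) but the lowest sum of fibrinogen chains (4360 RPKM). HFD+AOS replicate 1 likewise had the highest acute phase sum (11858 RPKM) and the lowest chain sum (5594 RPKM) of its group. The part of the acute phase genes in the result was not tested. Of 17 acute phase genes, 0 changed in either comparison, beside 6.6% and 8.75% of all genes. In A10-FMT against HFD 13 of 17 were lower (median log2 fold change -0.27, beside -0.03 for all genes). In HFD+AOS against HFD 11 of 17 were lower (-0.11, beside -0.01).

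A microbiota transfer from control mice did not give the same values. The Con-FMT livers stood at 1833, 2176 and 1943 RPKM for Fga, overlapping HFD, with a log2 fold change of -0.19 (95% confidence interval from -0.53 to 0.15, adjusted p = 0.872). Fgb and Fgg differed from HFD by -0.03 (from -0.39 to 0.32) and -0.11 (from -0.43 to 0.21). When the transfers were compared directly, each A10-FMT liver lay below each Con-FMT liver for all 3 chains. The log2 fold changes were -0.58 for Fga (adjusted p = 0.0818), -0.58 for Fgg (adjusted p = 0.0649) and -0.48 for Fgb (adjusted p = 0.162), so none passed. Without A10-FMT replicate 3, Fga (-0.71, adjusted p = 0.0246) and Fgg (-0.67, adjusted p = 0.0319) did. Leaving out A10-FMT replicate 2 moved them the other way, to -0.44 for Fga and -0.44 for Fgg. For Fga, AOS livers, labelled without a high-fat diet, stood at 2331, 2035 and 2168 RPKM and Con livers at 3066, 2035 and 2644 RPKM. The log2 fold change was -0.23 (adjusted p = 0.518), or -0.20 (adjusted p = 0.805) without the third Con and AOS livers. The test of whether the AOS effect differed with and without a labelled high-fat diet gave -0.38 for Fga (95% confidence interval from -0.86 to 0.10, adjusted p = 0.458). Such a difference was therefore not shown. None of the 40 factors passed that test, in which 0.504% of all genes did.

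**Figure D3:**
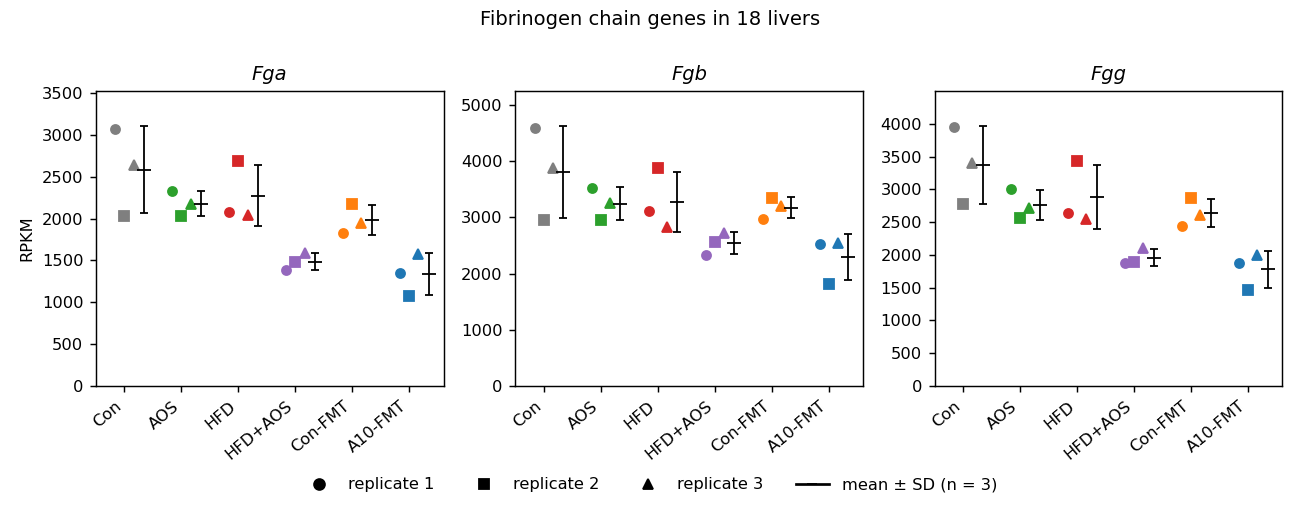
Level of Fga, Fgb and Fgg (RPKM, vertical axes starting at 0) in each of the 18 livers by group. Symbols are replicates and bars are means ± SD (n = 3); the HFD+AOS and A10-FMT livers lie below all HFD livers for each chain, and Con replicate 1 and HFD replicate 2 are the highest of their groups.

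The order of the group means was the same for Fga, Fgg and Fgb, running from Con over HFD, AOS, Con-FMT and HFD+AOS to A10-FMT. Con stood at 2582 ± 518, 3372 ± 591 and 3807 ± 822 RPKM for these genes. A10-FMT stood at 1337 ± 251, 1779 ± 281 and 2296 ± 414 RPKM (SD, n = 3). HFD+AOS stood at 1486 ± 102, 1956 ± 127 and 2541 ± 197 RPKM, within 1 SD of A10-FMT. HFD against Con gave log2 fold changes of -0.18, -0.23 and -0.21, none past the threshold (adjusted p from 0.491 to 0.637), and -0.15, -0.21 and -0.18 without the third Con and AOS livers (adjusted p from 0.718 to 0.824). The fibrinogen values of the 3 Con livers followed their acute phase sums in order, with replicate 1 the highest and replicate 2 the lowest in both.

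F13b encodes the carrier subunit of factor XIII, and F5 the cofactor that speeds the making of thrombin. F13b stood at 60, 81.2 and 70.4 RPKM in Con and at 99.3, 102 and 101 RPKM in HFD. All HFD livers were above all Con livers, and HFD increased F13b 1.44-fold (log2 fold change 0.52, SE 0.0935, adjusted p = 0.0317). F5 stood at 47.4, 64.4 and 55.0 RPKM in Con and at 76.5, 71.8 and 83.0 RPKM in HFD, and was increased 1.39-fold (log2 fold change 0.47, SE 0.0974, adjusted p = 0.0499). All 12 livers of the 4 high-fat diet groups lay above all Con livers for both genes, with F13b between 95.2 and 114 RPKM and F5 between 71.8 and 91.7 RPKM. AOS livers lay between these and Con for F13b (88.4 to 91.0 RPKM; log2 fold change against Con 0.36, adjusted p = 0.118) and above Con for F5 (66.9 to 69.7 RPKM; 0.29, adjusted p = 0.179). Without the third Con and AOS livers these were 0.36 (adjusted p = 0.523) and 0.27 (adjusted p = 0.578), and without Con replicate 2 alone F13b passed in AOS against Con (0.46, adjusted p = 0.0203). Without Con replicate 1 alone F13b had 0.25 in that comparison.

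Without the third Con and AOS livers the log2 fold changes of F13b and F5 in HFD against Con were 0.53 (adjusted p = 0.22) and 0.47 (adjusted p = 0.304), and neither passed when Con replicate 1, Con replicate 3 or any 1 HFD liver was left out (F13b, adjusted p from 0.0697 to 0.155; F5, from 0.0749 to 0.234). Without Con replicate 2 both passed (adjusted p = 0.00266 and 0.00589). In the Con livers both genes ran against the acute phase sum, lowest in replicate 1 and highest in replicate 2. Of the 17 acute phase genes, 16 had a lower mean in HFD than in Con (median log2 fold change -1.005), and 4 changed (Saa1, Saa2, Saa3 and Lcn2, all lower). In AOS against Con all 17 had a lower mean (median -0.91), and 2 changed (Saa2 and Saa3, both lower). The part of the acute phase genes in the results for F13b and F5 was not tested.

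The contact factors start the intrinsic route. F12 and Klkb1 encode proteases that activate each other, Kng1 encodes high molecular weight kininogen, and F11 encodes the next protease in line. F11 stood at 61.0, 49.4 and 46.9 RPKM in HFD, at 74.9, 60.1 and 70.1 RPKM in A10-FMT and at 66.8, 75.8 and 68.5 RPKM in HFD+AOS. Every HFD+AOS liver was above every HFD liver, whereas A10-FMT replicate 2 was just below HFD replicate 1. A10-FMT increased F11 1.30-fold (log2 fold change 0.38, SE 0.107, adjusted p = 0.0442) and HFD+AOS increased it 1.34-fold (log2 fold change 0.43, SE 0.107, adjusted p = 0.0244). Both calls were lost without HFD replicate 2 (adjusted p = 0.135 and 0.0832) or HFD replicate 3 (adjusted p = 0.171 and 0.112). That of A10-FMT was also lost without A10-FMT replicate 1 (adjusted p = 0.171) or 3 (adjusted p = 0.0675), and that of HFD+AOS without HFD+AOS replicate 1 (adjusted p = 0.0561) or 2 (adjusted p = 0.0826). Without the third Con and AOS livers the adjusted p was 0.0858 for A10-FMT and 0.0523 for HFD+AOS. The A10-FMT call was lost as well with no filter on low values (adjusted p = 0.0644), with scaling on genes outside the 100 most abundant (0.0737), with the replicate number as a block (0.0599) and with both groups alone in the fit (0.223), and the HFD+AOS call with both groups alone (0.0962).

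F11 in Con livers was lower than in any high-fat diet liver, at 37.6, 45.5 and 41.1 RPKM. HFD against Con gave 0.33 (adjusted p = 0.168), and Con-FMT, at 59.4, 55.0 and 63.5 RPKM, differed from HFD by 0.18 (adjusted p = 0.792). In HFD against Con F11 had 0.33 (adjusted p = 0.45) without the third Con and AOS livers. Its neighbour Klkb1 stood at 40.4, 51.4 and 47.5 RPKM in Con, at 61.3, 60.3 and 61.5 RPKM in AOS and at 59.0, 55.9 and 56.8 RPKM in HFD. The Con livers were below all others, yet neither AOS against Con (log2 fold change 0.39, adjusted p = 0.0771) nor HFD against Con (0.30, adjusted p = 0.126) passed. Without the third Con and AOS livers these were 0.41 (adjusted p = 0.523) and 0.32 (adjusted p = 0.398), and without Con replicate 2 alone Klkb1 passed in AOS against Con (0.47, adjusted p = 0.0213). Without Con replicate 1 alone Klkb1 had 0.30 in that comparison. In HFD+AOS and A10-FMT Klkb1 was at 66.3 ± 3.34 and 64.7 ± 3.3 RPKM (SD, n = 3), log2 fold changes of 0.21 and 0.17 over HFD that did not pass. F12 (186 to 241 RPKM over all livers) and Kng1 (963 to 1284 RPKM) had log2 fold changes between -0.01 and 0.18 in all 6 comparisons. Kng1 shares 22.2% of its 40-base words with Kng2, so reads of these genes could have been counted for both.

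**Figure D4:**
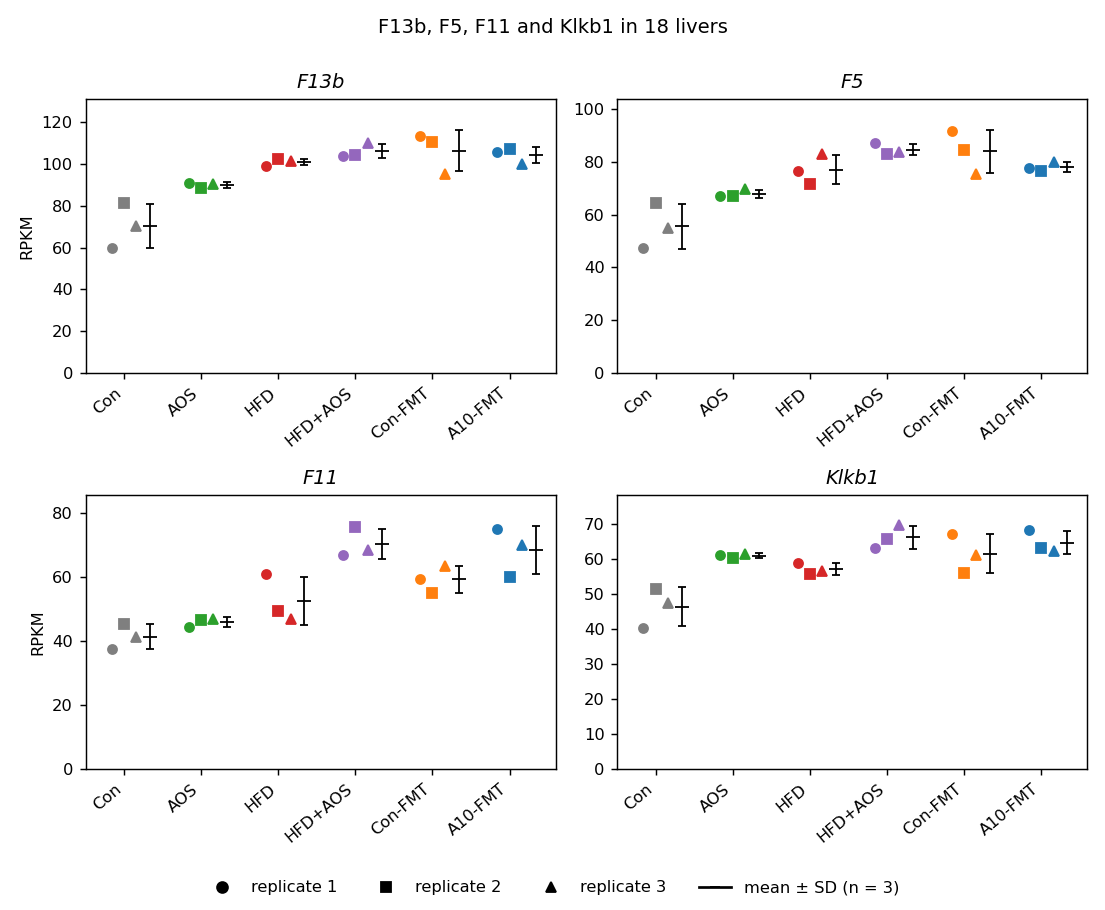
Level of F13b, F5, F11 and Klkb1 (RPKM, vertical axes starting at 0) in each of the 18 livers by group. Symbols are replicates and bars are means ± SD (n = 3); the 3 Con livers are below all livers on a high-fat diet in each panel, and the means of F11 are highest in HFD+AOS and A10-FMT.

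The vitamin K-dependent proteases F2 (prothrombin), F7, F9 and F10 did not pass in any comparison. Their log2 fold changes lay between -0.14 and 0.17. F2 ran from 678 to 1053 RPKM over all livers, and F7, F9 and F10 from 40.6 to 59.0, 75.7 to 91.9 and 161 to 198 RPKM. F10 was particularly even, with group means from 176 to 195 RPKM.

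Among the anticoagulants, Proc encodes protein C, Pros1 its cofactor protein S, Serpinc1 antithrombin and Serpind1 heparin cofactor II. Proc stood at 325, 310 and 270 RPKM in HFD, at 348, 334 and 345 RPKM in Con-FMT and at 432, 403 and 334 RPKM in A10-FMT. All livers of both transfer groups were above all HFD livers. The log2 fold changes over HFD were 0.18 for Con-FMT (adjusted p = 0.797) and 0.36 for A10-FMT (adjusted p = 0.0566), and 0.23 for HFD+AOS (354, 348 and 357 RPKM; adjusted p = 0.195). Pros1 ran from 10.8 to 15.6 RPKM, Serpinc1 from 1132 to 1580 RPKM and Serpind1 from 249 to 334 RPKM over all livers. Their log2 fold changes lay between -0.13 and 0.22, and none passed.

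Plg encodes plasminogen, and Serpinf2 the inhibitor of plasmin, alpha-2-antiplasmin. Plg was at 861, 896 and 887 RPKM in the Con livers, below all 15 others (958 to 1120 RPKM). HFD against Con gave 0.23 (adjusted p = 0.196) and AOS against Con 0.20 (adjusted p = 0.248), or 0.24 (adjusted p = 0.456) and 0.22 (adjusted p = 0.605) without the third Con and AOS livers. Serpinf2 was at 437 ± 16.5 RPKM in Con and 505 ± 31.5 RPKM in HFD (SD, n = 3; log2 fold change 0.21, adjusted p = 0.253; 0.23, adjusted p = 0.459, without the third livers). It was at 504, 416 and 420 RPKM in A10-FMT, a log2 fold change of -0.18 from HFD (adjusted p = 0.201).

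In the classical route of complement, C1qa, C1qb and C1qc encode the chains of C1q, which in liver are known from Kupffer cells, the resident macrophages. C1qb stood at 16.8, 20.6 and 39.4 RPKM in HFD and at 19.7, 17.8 and 19.4 RPKM in Con-FMT. HFD replicate 3 was about level with the highest Con liver (38.6 RPKM), and the groups overlapped. The log2 fold change of -0.32 (adjusted p = 0.845) turned to 0.03 without HFD replicate 3. C1qa (14.2 to 40.4 RPKM over all livers) and C1qc (13.8 to 36.3 RPKM) had their lowest values in HFD replicate 1 and their highest in AOS replicate 2, as C1qb did.

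The C1q genes moved with the Kupffer cell markers liver by liver. In HFD replicates 1, 2 and 3 the C1q genes summed to 44.8, 55.3 and 108 RPKM and 9 Kupffer cell and macrophage markers to 63.1, 68.1 and 120 RPKM. The ratio of these sums stayed between 0.710 and 0.927 over all 18 livers, while the C1q sum itself ran from 44.8 to 117 RPKM. By group, the marker sum ranged from 79.8 to 118 RPKM in Con, from 98.1 to 126 in AOS, from 63.1 to 120 in HFD, from 88.6 to 95.2 in HFD+AOS, from 66.4 to 83.4 in Con-FMT and from 65.4 to 89.7 in A10-FMT. None of the 9 markers changed in any comparison, beside 0.00952% to 8.75% of all genes, and all 9 were among the genes tested. All 9 were lower in HFD than in Con (median log2 fold change -0.34, beside 0.05 for all genes). In AOS against Con and in HFD+AOS against HFD 8 of 9 were higher. In A10-FMT against HFD, Con-FMT against HFD and A10-FMT against Con-FMT 3, 2 and 6 of 9 were higher. Cfp, which encodes properdin, a stabiliser of the alternative route made by leukocytes, was likewise highest in replicate 3 within HFD (5.29, 5.06 and 11.4 RPKM) and was highest in AOS replicate 2 (13.3 RPKM). The part of macrophage content in these values was not tested.

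**Figure D5:**
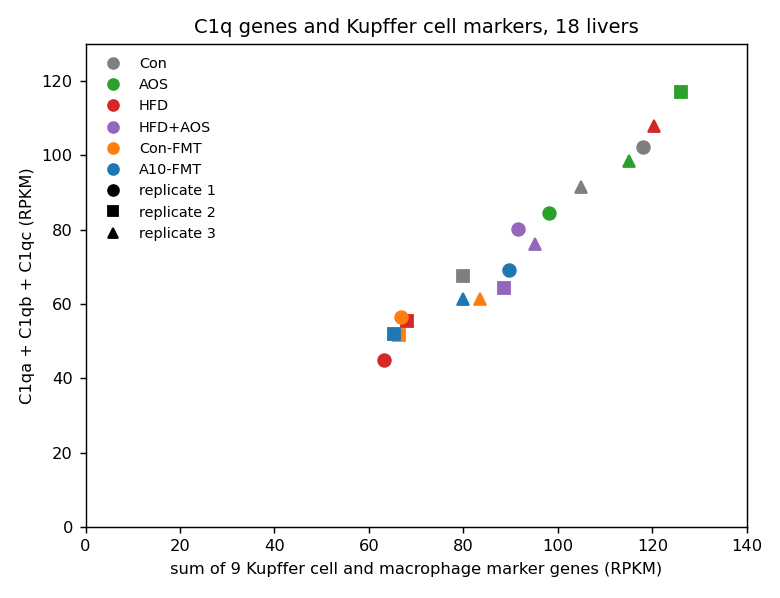
Sum of C1qa, C1qb and C1qc (vertical axis, RPKM) against the sum of 9 Kupffer cell and macrophage markers (horizontal axis, RPKM) in 18 livers. Colours are groups and symbols are replicates; the points follow a line, and the 3 HFD livers lie at both ends of it.

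C1ra and C1s1 encode the proteases of the C1 complex, and C4b the factor that C1s cleaves. C1s1 stood at 99.9, 141 and 126 RPKM in Con and at 160, 152 and 149 RPKM in HFD. The groups did not overlap, and the log2 fold change was 0.34 (adjusted p = 0.267). C1ra, at 138 ± 20.9 and 168 ± 12 RPKM (SD, n = 3), gave 0.29 (adjusted p = 0.321). Summed with its relative C1rb, it stood at 157 ± 6.36 RPKM in Con and 170 ± 12.2 RPKM in HFD, and this difference was not tested. C1s1 had 0.37 (adjusted p = 0.49) and C1ra 0.28 (adjusted p = 0.578) without the third Con and AOS livers. C4b ran from 230 to 355 RPKM with log2 fold changes between -0.17 and 0.12. Each of these genes has a close relative on the same chromosome, with 46850 to 82265 bases between the genes of a pair. In 40-base words C1ra shares 52.55% of its longest transcript with C1rb, C4b 41.85% with C4a and C1s1 29.6% with C1s2. Their values are uncertain to the extent that reads were counted for both genes of a pair or split between them.

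Mbl1 and Mbl2 encode the mannose-binding lectins and Masp1 and Masp2 the proteases bound to them. Mbl1 stood at 193, 239 and 180 RPKM in HFD and at 165, 167 and 170 RPKM in HFD+AOS, below each HFD liver, with a log2 fold change of -0.27 (adjusted p = 0.1). Mbl2 stood at 393, 362 and 410 RPKM in Con-FMT and at 480, 508 and 371 RPKM in A10-FMT, which overlapped (0.21, adjusted p = 0.38). A10-FMT replicates 1 and 2 were the highest of all 18 livers for Mbl2.

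Masp1 stood at 29.5, 34.1 and 30.7 RPKM in Con and at 38.8, 38.0 and 39.98 RPKM in HFD. The groups did not overlap, and the log2 fold change of 0.30 did not pass (adjusted p = 0.126). Without the third Con and AOS livers it was 0.29 (adjusted p = 0.428). Masp2 stood at 165, 157 and 148 RPKM in HFD and at 200, 197 and 165 RPKM in A10-FMT, with a log2 fold change of 0.25 (adjusted p = 0.117) that passed without A10-FMT replicate 3 (0.34, adjusted p = 0.0338). Without A10-FMT replicate 1 it was 0.20.

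C3 is cleaved by all routes, and Cfb encodes factor B, the protease of the alternative route. C3 stood at 1809, 2319 and 2001 RPKM in HFD and at 1804, 1620 and 1457 RPKM in A10-FMT. A10-FMT replicate 1 was just below HFD replicate 1, so the groups did not overlap, and the log2 fold change was -0.33 (adjusted p = 0.11). In HFD+AOS C3 was at 1800, 1483 and 1644 RPKM, with -0.31 (adjusted p = 0.117). Cfb stood at 496, 561 and 563 RPKM in HFD and at 437, 439 and 464 RPKM in HFD+AOS. The gap between the groups was clear, and the log2 fold change of -0.27 lay just outside the threshold (adjusted p = 0.0508) and passed without HFD replicate 1 (-0.33, adjusted p = 0.0253). Without HFD replicate 3 it was -0.24. Scaled on the genes outside the 100 most abundant, Mbl1, C3 and Cfb passed in HFD+AOS against HFD and C3 in A10-FMT against HFD, each lower. Under that scaling 8.21% and 7.15% of all genes passed as lower in these comparisons.

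The terminal factors C6, C8a, C8b, C8g and C9 form the pore. C6 was the factor with the largest fitted difference in AOS against Con, at 44.3, 72.0 and 59.7 RPKM in AOS and 120, 92.7 and 109 RPKM in Con. The groups did not overlap, but the log2 fold change of -0.88 (95% confidence interval from -1.46 to -0.31) had an adjusted p of 0.159, and without the third Con and AOS livers it was -0.89 (adjusted p = 0.532). In HFD livers C6 stood at 145, 130 and 77.6 RPKM and in Con-FMT at 65.6, 123 and 129 RPKM, so that livers of 1 group lay far apart. C8g, whose protein binds to the C8 alpha chain, stood at 363, 257 and 241 RPKM in HFD and at 347, 297 and 353 RPKM in Con-FMT, with a log2 fold change of 0.23 (adjusted p = 0.805), and was at 363, 347 and 391 RPKM in HFD+AOS (0.38, adjusted p = 0.112). C8a (217 to 323 RPKM) and C8b (137 to 238 RPKM), which lie 11130 bases apart on chromosome 4, were both highest in HFD replicate 2. Both were lower in every AOS liver than in every Con liver, with log2 fold changes of -0.30 (adjusted p = 0.23) and -0.32 (adjusted p = 0.279), and of -0.30 (adjusted p = 0.61) and -0.33 (adjusted p = 0.629) without the third Con and AOS livers. C9 followed the acute phase sums of the Con livers in order, at 433, 170 and 301 RPKM in replicates 1, 2 and 3.

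The inhibitors are Cfi (factor I, which cleaves C3b and C4b), C4bp (its cofactor, C4b-binding protein) and Serping1 (C1 inhibitor). Cfi stood at 346, 326 and 360 RPKM in Con-FMT and at 308, 277 and 279 RPKM in A10-FMT. The groups did not overlap, and the log2 fold change of -0.26 did not pass (adjusted p = 0.132). C4bp stood at 353, 233 and 301 RPKM in Con and at 237, 230 and 238 RPKM in AOS (-0.31, adjusted p = 0.212). Only Con replicate 2 was at the AOS level, and C4bp passed when that liver was left out (-0.47, adjusted p = 0.0199). Without Con replicate 1, the highest of all livers for C4bp, the log2 fold change was -0.17. C4bp had -0.29 (adjusted p = 0.61) without the third Con and AOS livers. Serping1 ran from 583 to 785 RPKM, and its log2 fold changes lay between -0.02 and 0.10.

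Other genes of these pathways were read for context from a list of 33 complement genes, of which 23 were tested, and 33 coagulation genes, of which 22 were tested. Against HFD, A10-FMT changed 0 of the 23 complement genes and 6 of the 22 coagulation genes, beside 6.6% of all genes. F3 (tissue factor, the trigger of coagulation) and Serpina5 (protein C inhibitor) were higher, with log2 fold changes of 0.62 (adjusted p = 0.0271) and 0.73 (adjusted p = 0.0494). Tfpi and Tfpi2 (tissue factor pathway inhibitors) were lower, with log2 fold changes of -0.42 (adjusted p = 0.0479) and -0.83 (adjusted p = 0.026). Ggcx (the carboxylase of vitamin K-dependent factors) and S100a10 (a plasminogen receptor subunit) were lower too, with -0.36 (adjusted p = 0.0336) and -0.86 (adjusted p = 0.00972). In HFD+AOS against HFD, 4 of the 22 changed, beside 8.75% of all genes, with F3 (0.96, adjusted p = 0.00212) and Serpina5 (0.83, adjusted p = 0.0243) higher and Ggcx (-0.42, adjusted p = 0.0158) and S100a10 (-0.92, adjusted p = 0.00614) lower. F3 stood at only 1.84, 1.26 and 1.31 RPKM in HFD and at 3.53, 3.83 and 3.96 RPKM in HFD+AOS, so its fold change on the RPKM + 1 scale understates that on RPKM. Of both lists, 0 genes changed in the other 4 comparisons.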

How the data were processed

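Liver RNA of 18 mice was sequenced on an Illumina instrument. The authors mapped reads to reference genes with SOAPaligner, with settings that report every hit of a read, and deposited RPKM values, rounded to 2 decimals. The submitters' processing notes name mm10 and Bowtie 0.12.2. The annotation and the strandedness are not given in the sources used here, and the table's header does not name the unit. Samples were grouped by their labels, and 0 columns were left unmapped.

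The fit kept genes that reached an RPKM of 1 in 3 or more livers (10507 of 17109 with any value above 0; 3 symbols stood on more than 1 line). The fit was limma 3.58.1 (R 4.3.3) on log2(RPKM + 1) with a pseudocount of 1, a mean for each of the 6 groups, eBayes with trend, two-sided, with the Benjamini-Hochberg adjustment made separately for each contrast, and was tested on simulated data. DEGseq, which needs read numbers, was not run. Same-numbered livers did not deviate together in the 6 comparisons (correlations from -0.177 to 0.225), so no pairing by number was seen there. A batch shared between livers was not tested. Gene places are from GENCODE M21 (GRCm38), matched by symbol for 40 of 40 factors, and words of 40 bases were compared between longest transcripts. Tables and figures were made with Python 3.11.15, numpy 2.4.6, pandas 2.3.3 and matplotlib 3.10.9.

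The factors and all gene lists were chosen with earlier results of these data known. All 40 factors are named. Values in every liver are given for factors that changed in any comparison and, for each comparison and list, for the 2 factors of smallest unadjusted p; called genes of the wider pathway lists, near-identical relatives and marker sums are named beside them. The result of the wider complement list in HFD+AOS against HFD is not reported here. Any other gene named was chosen after its values were seen.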

Additional observations from a re-analysis of the deposited data

How the results depend on the processing

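Depth is unknown, 3 livers a group limit every test, and the Con livers differed in acute phase genes. A pseudocount of 0.1 moved no count of changed factors by more than 1.5 times. Of the 2 coagulation factors changed in HFD against Con, 1 (F13b) was left with no low-value filter and with equal medians, and 0 with only both groups in the fit, with the replicate number as a block (chosen to test pairing), without the third Con and AOS livers, and at an adjusted p of at most 0.001 with a log2 fold change of 1 or more either way. Of the 3 in A10-FMT against HFD, 0 were left with both groups alone and at those stricter limits, and of the 3 in HFD+AOS against HFD, 1 with no filter and 0 with both groups alone, without the third Con and AOS livers and at the stricter limits. Scaling on genes outside the 100 most abundant gave 1 complement factor in A10-FMT against HFD, 3 in HFD+AOS against HFD, and 1 coagulation factor in A10-FMT against Con-FMT. Of all genes tested, 1109, 1335 and 262 passed under that scaling in these comparisons, in the same order. In the main fit 693, 919 and 177 did.

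Leaving out 1 liver at a time gave 0 to 3 coagulation factors in HFD against Con, 0 to 4 in A10-FMT against HFD, 0 to 2 in A10-FMT against Con-FMT, 0 to 3 in AOS against Con and 0 to 3 in HFD+AOS against HFD. It gave 0 to 2 complement factors in A10-FMT against HFD, 0 to 1 in AOS against Con and 0 to 2 in HFD+AOS against HFD, and 0 elsewhere. The shares of all genes that passed in these fits are not given here, so these counts have no background beside them. An arm of 2 livers uses the spread of all groups. The log2 fold change of C1qb in Con-FMT against HFD ran from -0.56 without HFD replicate 1 to 0.027, reversed, without HFD replicate 3. The replicate block changed no other count by more than 1.5 times. The cause of these shifts was not tested. Over all genes, 31 higher and 9 lower in HFD against Con became 24 and 23 with equal medians, and 275 higher and 418 lower in A10-FMT against HFD became 603 and 467.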

Other observations

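The relative of C1ra, C1rb, split the livers into high and low values within groups. It stood at 31.9, 3.13 and 21.4 RPKM in Con, at 2.29, 34.2 and 24.3 RPKM in AOS, at 55.9, 21.7 and 3.03 RPKM in HFD+AOS and at 2.29, 42.5 and 3.25 RPKM in Con-FMT, while the 3 HFD livers (1.61, 1.95 and 1.62 RPKM) and the 3 A10-FMT livers (2.90, 2.67 and 1.60 RPKM) were all low. C1ra was lowest within Con, AOS, HFD+AOS and Con-FMT in the liver with the highest C1rb of that group, at 118, 132, 123 and 149 RPKM. The sum of C1ra and C1rb ran only from 150 to 195 RPKM over the 18 livers. These genes share most of their letters, and how reads were split between them was not tested. C1s1, which lies next to C1ra, was also lowest in each of these 4 livers.

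The balance of the fibrinogen chains was read as a ratio that was chosen after the values were seen. Fgb divided by Fga was 1.44 ± 0.0565 in HFD, 1.47 ± 0.0236 in Con and 1.49 ± 0.0336 in AOS, and 1.60 ± 0.0598 in Con-FMT, 1.71 ± 0.0233 in HFD+AOS and 1.72 ± 0.134 in A10-FMT (SD, n = 3). Every liver of these last 3 groups was above every HFD, Con and AOS liver. Exact two-sided permutation tests against HFD gave p = 0.1 for each of the 3 (adjusted p = 0.2 over 6 comparisons), the smallest p that 3 livers against 3 allow, so none passed.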
